A study of Mus musculus with 48 samples.

Results

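Germ cells of a MEHP-exposed mouse lineage were set directly against germ cells of a VZN-exposed lineage, miRNA by miRNA and without the controls of the study. MEHP is a monoester that the body makes from a phthalate plasticiser. VZN, vinclozolin, is a crop fungicide that blocks the androgen receptor. The comparison takes all 8 MEHP and all 8 VZN libraries of primordial germ cells (PGC), chosen by their labels alone, which makes 16 of the 48 small RNA libraries in the series. Of the 563 miRNAs in the count table, 453 were listed in at least 1 of these 16 libraries and 310 in all 16. The 310 were tested, 143 were listed in some libraries, and 110 were listed in none.

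All animals were CD1 mice, and the cells came from embryonic ovaries at embryonic day 13.5. In the MEHP lineage pregnant females of the founding generation drank 35 mg of MEHP per kg body weight daily, and in the VZN lineage 50 mg of VZN per kg daily. Both agents were given in 0.3% v/v DMSO over the first 13 days of pregnancy. The doses differ in mass, so each difference below is between 2 lineages at their own doses and not between equal doses. F1 embryos were exposed in the uterus, F2 and F3 descend from them, and F2Sy is a second generation with both progenitors from the exposed lineage. The germ cells of the F1 embryos, from which F2 and F2Sy descend, were in the uterus during that dosing too. Each of the 8 combinations of lineage and class (F1, F2, F2Sy, F3) has 2 libraries, from pools of about 80 gonads whose germ cells were caught with anti-CD15 beads, at a labelled purity of 93 to 96%. Whether the paired libraries of a group stem from different pools or litters is not in the labels, so p-values measure the spread among these libraries only, and that spread may be technical.

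Mature miRNAs guide Argonaute proteins to messenger RNAs that pair with their seed, bases 2 to 8, and so lower the output of those messages. Mouse germ cells and pluripotent cells are rich in the miR-290-295 cluster, whose 3p arms promote cell division, and germ cells also carry a fast-evolving group of miRNAs on the X chromosome that is known from the testis. A lineage difference that lasts beyond the directly exposed generation is the question that the design puts to these cells.

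The sequences that the results turn on are those of the 3 miRNAs that passed the test, miR-871-3p, miR-741-3p and miR-652-3p, and of X-linked cluster members that share a seed. They are mature sequences from RefSeq on the build GRCm38.p6, 5′ to 3′, with the seed in capitals.
miR-871-3p: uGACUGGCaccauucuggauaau
miR-741-3p: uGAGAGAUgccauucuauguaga
miR-652-3p: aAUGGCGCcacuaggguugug
miR-743a-3p: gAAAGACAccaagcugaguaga
miR-743b-3p: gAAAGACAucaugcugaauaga
miR-871-5p: uAUUCAGAuuagugccagucaug
miR-743a-5p: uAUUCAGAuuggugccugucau
miR-465a-5p: uAUUUAGAauggcacugauguga
miR-465b-5p: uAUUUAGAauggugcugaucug
miR-465c-5p: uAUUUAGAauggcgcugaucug
The 3 miRNAs that passed have 3 different seeds. The 27 tested arms of the X-linked cluster carry 23 distinct seeds, and 7 of the 27 share a seed with another member, as the 3 groups above show. Reads of near-identical members such as miR-465a, miR-465b and miR-465c can be split between them by the counting, so their single values are uncertain.

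The 17 RefSeq hairpins matched to the tested members of the cluster lie on the minus strand of chromosome X, between 66776757 and 66839125 on GRCm38.p6, and all 17 are intergenic in the gene annotation. The hairpin of miR-652-3p lies elsewhere on the X chromosome, at chrX:142739000-142739097 on the plus strand, in an intron of Tmem164. Sequences were matched by name for 264 of the 310 tested miRNAs.

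Listed totals were 6155150 ± 931370 counts in MEHP libraries and 5672460 ± 1370070 in VZN libraries (SD, n = 8 each; exact permutation within classes, two-sided p = 0.455). MEHP libraries listed 385.4 ± 7.54 miRNAs and VZN libraries 386 ± 8.70 (SD, n = 8 each; exact permutation p = 0.898, with 0.00154 the smallest p this design allows). The VZN F2Sy pair stood apart: the log2 levels of its libraries correlated at r = 0.84 across miRNAs, where the other 7 pairs stood between 0.956 and 0.990. Library 1 had the lowest median correlation with the other 15 libraries, 0.919, library 2 the next, 0.929, and library 2 had the lowest total, 2932091 counts. The F2Sy calls, the F2Sy values of the miRNAs that a call turns on and several list medians are given below with and without each of them. Levels below are CPM, a library's counts scaled to a listed total of 1000000. Fold changes are edgeR log2 fold changes of MEHP over VZN, and the word called means an adjusted p under 0.05 in edgeR's quasi-likelihood test with Benjamini-Hochberg adjustment over the 310.

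Averaged over the 4 classes, no miRNA was called, and the levels of the most abundant miRNAs lay close together in the lineages. edgeR called 0 of 310 (0.0%), with a smallest adjusted p of 0.565. DESeq2 and limma voom with library quality weights also called 0, and edgeR called 4 without VZN F2Sy library 1 and 4 without VZN F2Sy library 2. At an unadjusted p under 0.05 there were 12 (3.87%), of which 11 had higher values in MEHP (3.55%) and 1 in VZN (0.323%). The differences ran from -0.81 to 0.71 on the log2 scale, with a median of 0.00, and 155 of 310 were above 0 (50.0%). The 95% interval lay within a doubling either way, between -1 and 1 on the log2 scale, for 287 miRNAs (92.6%), and it reached a median of 0.42 to either side of the estimate.

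miR-92a-3p, a product of the growth-promoting miR-17-92 cluster and one of the 2 most abundant miRNAs, ranged from 69877 to 101390 CPM in MEHP libraries with a median of 88323. It ranged from 72331 to 121391 CPM in VZN libraries with a median of 94658. The difference was -0.02 ± 0.10 (log2, SE), with a 95% interval of -0.24 to 0.20. miR-292a-3p, the leading arm of the miR-290-295 cluster, had a median of 87021 CPM in MEHP libraries and of 90390 CPM in VZN libraries. Its difference was 0.03 ± 0.15 (log2, SE), with an interval of -0.29 to 0.36. The ranges of both miRNAs overlapped in part between the lineages. In the plot of intervals, each of the 10 most abundant other miRNAs has an interval that includes 0. They were picked after the 10 miRNAs with the smallest p were set aside, so this was largely fixed in advance. miR-652-3p, itself among the 10 most abundant, was set aside, with a difference of 0.25 and an edgeR unadjusted p under 0.05.

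**Figure D1:**
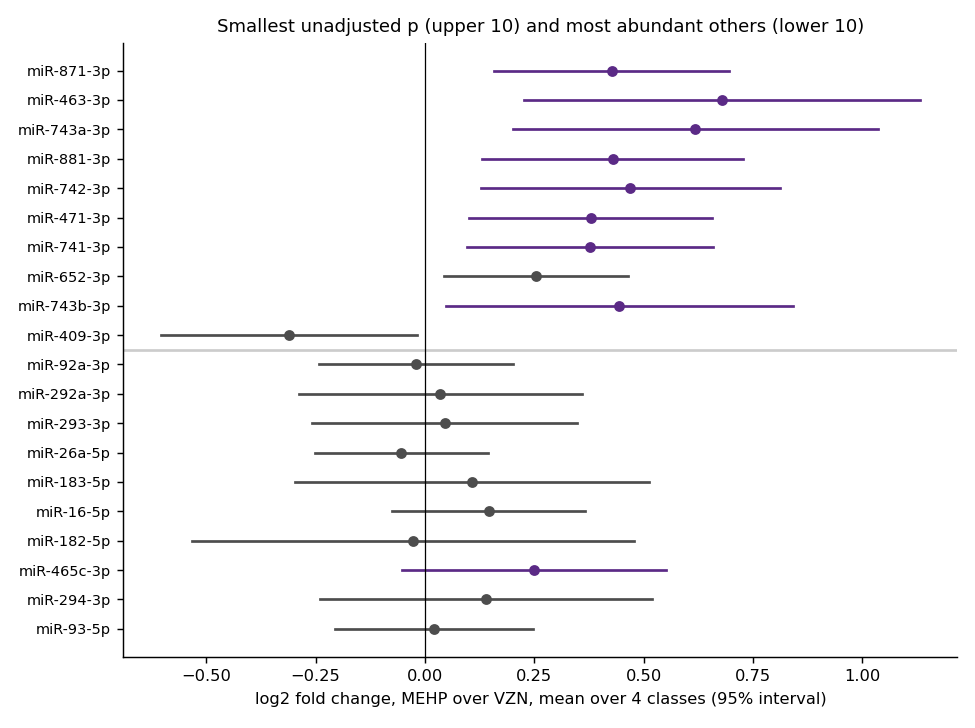
Log2 fold change of MEHP over VZN averaged over F1, F2, F2Sy and F3, with 95% intervals, for the 10 miRNAs with the smallest unadjusted p (upper) and the 10 most abundant others (lower); purple marks the X-linked germline cluster. The upper 10 hold 8 cluster members, miR-652-3p and miR-409-3p, and none of the 20 had an adjusted p under 0.565.

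The 10 miRNAs with the smallest p in the mean were mostly of 1 genomic group. 8 of them belong to the X-linked germline cluster, namely miR-871-3p, miR-463-3p, miR-743a-3p, miR-881-3p, miR-742-3p, miR-471-3p, miR-741-3p and miR-743b-3p, with differences from 0.38 to 0.68. The remaining 2 were miR-652-3p at 0.25 ± 0.10 and miR-409-3p of the imprinted Dlk1-Dio3 domain at -0.31 ± 0.14 (log2, SE). With the F2Sy libraries left out, an alternative chosen after the values were seen, miR-652-3p was at 0.02. miR-463-3p had the largest difference of the 10. Its levels were 50.97 and 84.39 CPM in MEHP F1, 63.96 and 107.1 in MEHP F2, 85.13 and 147.4 in MEHP F2Sy, and 65.65 and 67.24 in MEHP F3. In the VZN lineage they were 41.80 and 32.73 CPM in F1, 68.10 and 43.67 in F2, 66.15 and 45.02 in F2Sy, and 55.82 and 80.43 in F3. The F1 and F2Sy libraries did not overlap between the lineages, and the F2 and F3 libraries did. Both MEHP libraries were above both VZN libraries for 34 of all 310 miRNAs in F1 and 38 of all 310 in F2Sy. The difference of miR-463-3p, 0.68 ± 0.21 (log2, SE), had an edgeR adjusted p of 0.565.

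Each of the 27 tested arms of the X-linked cluster had a positive mean difference, with a median of 0.32 and a range of 0.19 to 0.68, beside a median of 0.00 over all 310, of which 50.0% were above 0. None of the 27 was called, and 8 had an unadjusted p under 0.05. The other 5 of the 32 members in the table were not listed in all 16 libraries and were not tested. With the F2Sy libraries left out, an alternative chosen after the values were seen, the median of the 27 was 0.08. The other 23 tested miRNAs of the X chromosome had a median of 0.00 and the 211 autosomal miRNAs one of -0.03.

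Within the single classes, calls were made in F2Sy and in no other class. There edgeR called 3 of 310 miRNAs (0.968%), all of them higher in MEHP germ cells, and 45 had an unadjusted p under 0.05 (14.5%), 28 of them higher in MEHP (9.03%) and 17 lower (5.48%). DESeq2 called 29 and limma voom called 0. In F1, F2 and F3 edgeR called 0 (0.0% each), as did DESeq2 and limma voom, with 3 (0.968%), 6 (1.94%) and 0 (0.0%) at an unadjusted p under 0.05. At 2 libraries against 2, the 95% interval lay between -1 and 1 for 122 miRNAs in F1, 124 in F2, 100 in F2Sy and 144 in F3, so for most miRNAs the interval in a single class reached past a doubling in at least 1 direction.

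miR-871-3p, a member of the X-linked cluster, was the first of the 3. It stood at 30177 and 30668 CPM in MEHP F2Sy germ cells, against 12165 and 11338 CPM in VZN F2Sy germ cells. In the other MEHP libraries it was 10490 and 10940 CPM in F1, 13738 and 18966 in F2, and 13948 and 16556 in F3. In the other VZN libraries it was 9831 and 9924 CPM in F1, 16494 and 16411 in F2, and 11592 and 19151 in F3. The 2 MEHP F2Sy libraries were above all 14 others, and the 2 VZN F2Sy libraries lay inside the range of the rest. The F2Sy difference was 1.53 ± 0.25 (log2, SE; edgeR adjusted p = 0.0148), with a 95% interval of 0.98 to 2.08.

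miR-741-3p, of the same cluster, showed the same arrangement at a lower level. It had 13566 and 15257 CPM in MEHP F2Sy, against 7310 and 6159 CPM in VZN F2Sy. The other 6 MEHP libraries ran from 5668 to 8477 CPM and the other 6 VZN libraries from 4654 to 9264 CPM, so again only the MEHP F2Sy pair stood outside. The difference was 1.25 ± 0.26 (log2, SE; edgeR adjusted p = 0.0430).

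miR-652-3p differed in another way. It had 29369 and 23896 CPM in MEHP F2Sy, against 15674 and 14985 CPM in VZN F2Sy. The other 6 MEHP libraries ran from 25244 to 32199 CPM and the other 6 VZN libraries from 23829 to 29878 CPM. Here the MEHP F2Sy pair lay among the rest and the VZN F2Sy pair was the lowest of the 16. The difference was 0.96 ± 0.20 (log2, SE; edgeR adjusted p = 0.0430). Of the 310 miRNAs, 3 had both VZN F2Sy libraries below the other 14 (0.968%), namely miR-652-3p, miR-320-3p and miR-106b-5p, the last 2 named after their values were seen. miR-320-3p had 1359 and 1496 CPM in MEHP F2Sy, against 313.2 and 715.2 CPM in VZN F2Sy, a difference of 1.68 that edgeR did not call (adjusted p = 0.0824). It was called at 2.24 without VZN F2Sy library 2 (edgeR adjusted p = 0.0265), and stood at 1.22 without library 1.

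**Figure D2:**
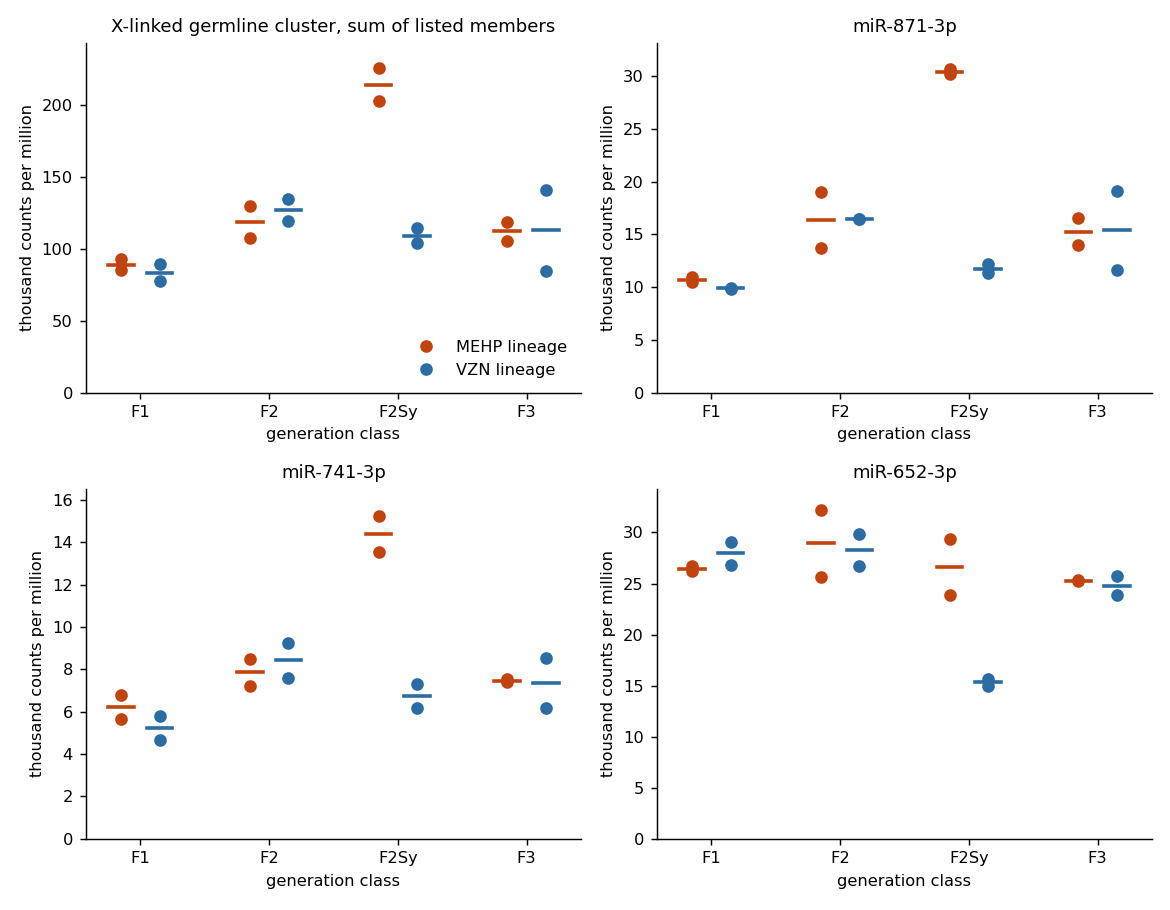
Levels, as CPM divided by 1000, for each library (points) with the mean of the 2 libraries of a group (bars), MEHP left of VZN in each generation class, for the summed X-linked germline cluster, miR-871-3p, miR-741-3p and miR-652-3p. The MEHP F2Sy pair is the highest in the first 3 panels, with cluster sums of 202837 and 225682 CPM, and the VZN F2Sy pair is the lowest for miR-652-3p.

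The 3 calls rest on few libraries. None of the 310 was called without MEHP F2Sy library 1, without MEHP F2Sy library 2, without MEHP F3 library 2 or without VZN F2 library 2, and only miR-871-3p was called without any 1 of 7 others (MEHP F1 library 2, either MEHP F2 library, MEHP F3 library 1, either VZN F1 library, VZN F2 library 1). The differences were 1.65 for miR-871-3p, 1.45 for miR-741-3p and 1.06 for miR-652-3p without VZN F2Sy library 1. Without VZN F2Sy library 2 they were 1.37, 1.03 and 0.81 in the same order, and miR-741-3p was no longer called. Both of these fits called more than 3 miRNAs, most of them outside the X-linked cluster. A group left with 1 library is assumed to vary as the others do. No miRNA was called in F2Sy by limma voom, with blanks set to the smallest listed count, in a fit of the 4 F2Sy libraries alone, or with adjustment over the 4 classes together.

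The F2Sy difference ran through the X-linked cluster as a whole. All 27 tested members were above 0, beside 46.8% of all 310, by a median of 1.13 and a range of 0.47 to 1.57 on the log2 scale, beside a median of -0.03 over all 310. 2 members were called and 20 had an unadjusted p under 0.05. Both MEHP F2Sy libraries were above both VZN F2Sy libraries for 24 of the 27, beside 38 of all 310 (12.3%). Both were above all 14 other libraries for 20 of the 27, beside 22 of all 310 (7.1%). The 2 of those 22 outside the cluster, named after their values were seen, were miR-146b-5p, known from leukocytes, and miR-206-3p, known from skeletal muscle.

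In sum the members made up 202837 and 225682 CPM in MEHP F2Sy, against 114243 and 104183 CPM in VZN F2Sy. The other 6 MEHP libraries held between 85203 and 129600 CPM and the other 6 VZN libraries between 77337 and 141182 CPM. The MEHP F2Sy pair was thus clear of the other 14 libraries, and the VZN F2Sy pair lay within the range of the remaining libraries of both lineages. miR-465c-3p, the member with the highest mean level, had 41465 and 49865 CPM in MEHP F2Sy against 23514 and 28366 CPM in VZN F2Sy, a difference of 0.99 that was not called (edgeR adjusted p = 0.0824).

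Of the 16 hairpin names with a tested arm in the cluster, 11 had both arms tested, and the F2Sy difference of the 3p arm was above that of the 5p arm in each of the 11. Without VZN F2Sy library 1 it was so in 8 of the 11, and without library 2 in 9. The arms share the same libraries, and no count over the other tested hairpins is set beside these. miR-743a had 1.44 on its 3p arm and 0.65 on its 5p arm, and miR-741 had 1.25 on its 3p arm and 1.21 on its 5p arm. The largest difference in the cluster was that of miR-883b-5p, at 1654 and 1606 CPM in MEHP F2Sy against 888.8 and 291.6 CPM in VZN F2Sy, which was 1.57 (edgeR adjusted p = 0.0824). It was called at 2.71 without VZN F2Sy library 1 (edgeR adjusted p = 0.000495), and stood at 0.92 without library 2. The smallest was that of miR-878-5p at 0.47. The median of the 27 was 0.93 without VZN F2Sy library 2 and stayed between 0.92 and 1.25 when any 1 library was left out.

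**Figure D3:**
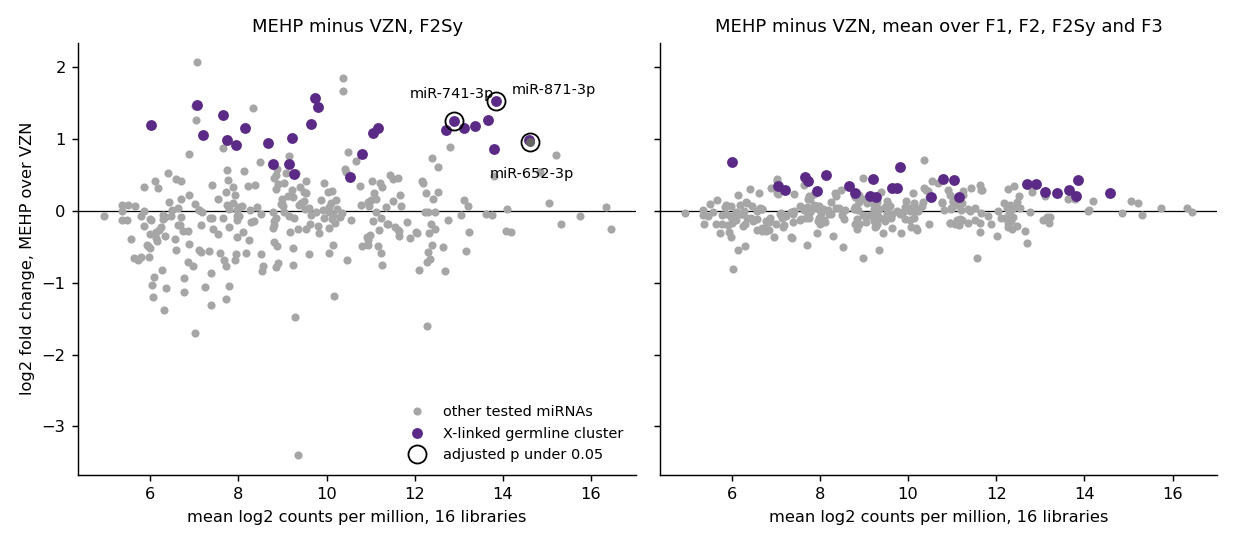
Log2 fold change of MEHP over VZN against the mean log2 CPM of the 16 libraries for the 310 tested miRNAs, in F2Sy (left) and averaged over the 4 classes (right); purple marks the 27 X-linked cluster members and circles mark an adjusted p under 0.05. In F2Sy the purple points lie between 0.47 and 1.57 at every level, and in the mean between 0.19 and 0.68.

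In the other classes the cluster's values lay nearer 0. In F1 its median difference was 0.10, with 23 of 27 above 0 beside 46.1% of all 310. In F2 it was 0.00, with 14 of 27 above 0 beside 52.3%. In F3 it was 0.07, with 22 of 27 above 0 beside 51.6%. The medians over all 310 were -0.03, 0.03 and 0.01 in F1, F2 and F3. Leaving out 1 library moved the cluster median between 0.02 and 0.46 in F1 (without VZN F1 library 2 and library 1), between -0.08 and 0.08 in F2, and between -0.19 and 0.45 in F3 (without VZN F3 library 1 and library 2). Both MEHP libraries were above both VZN libraries for 6 of the 27 members in F1 (34 of all 310, 11%), 6 in F2 (78 of 310, 25.2%) and 0 in F3 (31 of 310, 10%). Both VZN F1 libraries were below the other 14 for 5 members, which are all 5 miRNAs with that pattern (1.61%).

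The change in the lineage difference between F2 and F2Sy was tested in itself. edgeR called 0 of 310 (0.0%), with 30 at an unadjusted p under 0.05 (9.68%), while DESeq2 called 13 and limma voom 0. Without VZN F2Sy library 1 edgeR called 21, and without VZN F2Sy library 2 it called 9. The 4 smallest p-values were those of miR-324-5p at -2.47 ± 0.56, miR-871-3p at 1.53 ± 0.35, miR-471-3p at 1.36 and miR-741-3p at 1.34 ± 0.37 (log2, F2Sy minus F2; SE). The first 2 had an edgeR adjusted p of 0.133. All 27 cluster members were above 0 in this comparison, beside 46.8% of all 310, with a median of 0.98 beside -0.07. 12 of the 27 had a positive value at an unadjusted p under 0.05, beside 4.84% of all 310 in each direction. Both comparisons use the same F2Sy libraries. No lineage difference is therefore shown to be particular to F2Sy by the edgeR test.

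**Figure D4:**
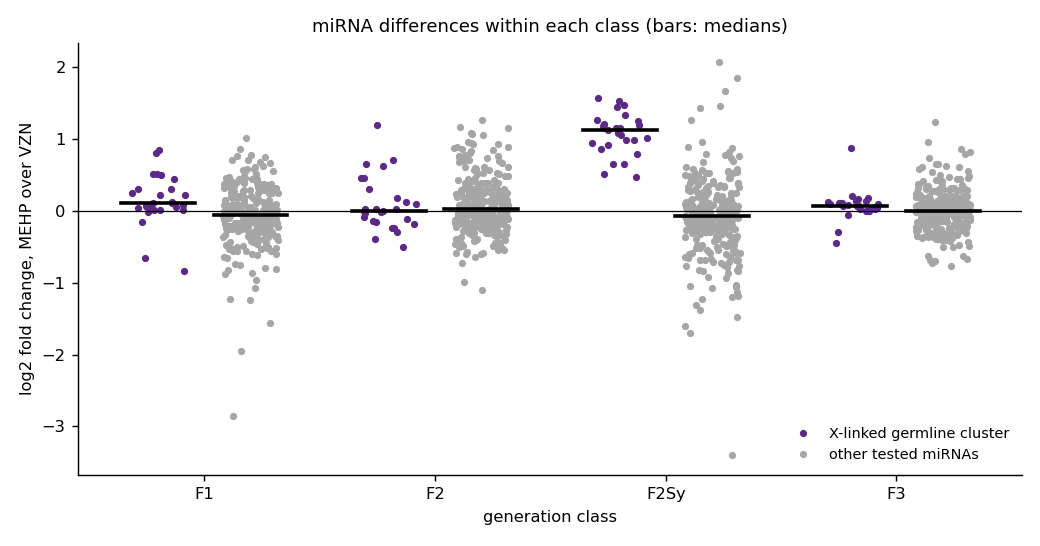
Log2 fold change of MEHP over VZN in each generation class for the 27 tested arms of the X-linked cluster (purple) and the other 283 tested miRNAs (grey), with medians as bars. The cluster median is 1.13 in F2Sy and 0.10, 0.00 and 0.07 in F1, F2 and F3.

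miR-324-5p, which leads that comparison, had 40.96 and 42.80 CPM in MEHP F2Sy against 148.5 and 90.38 CPM in VZN F2Sy. In F2 it had 69.77 and 99.42 CPM in MEHP against 36.02 and 43.97 CPM in VZN. The order of the lineages was thus opposite in the 2 classes, without overlap in either. Both MEHP libraries were below both VZN libraries for 22.9% of all 310 miRNAs in F2Sy, and above them for 25.2% in F2. The levels of miR-324-5p are near the smallest listed values, which were 19.2 to 37.9 CPM per library.

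The lineage difference of F3 less that of F1 gave 0 calls in edgeR (0.0%), DESeq2 and limma voom, with 2 at an unadjusted p under 0.05 (0.645%). 10 of the 27 cluster members were above 0 in it, beside 53.9% of all 310. The joint test over the 4 classes gave 0 calls in edgeR (0.0%; smallest adjusted p = 0.673) and 17 at an unadjusted p under 0.05 (5.48%), and DESeq2 called 6. Split by source, the sums of squares of log2 CPM had a median share of 3.08% for lineage, 23.6% for class, 13.5% for lineage by class and 50.9% for the spread between the 2 libraries of a group. The shares of the degrees of freedom are 6.67%, 20%, 20% and 53.3%. For the X-linked cluster the medians were 11.1%, 37.0%, 21.3% and 27.1%, which were 27 values that share their libraries and were given no test.

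In F1, the directly exposed generation, the smallest p belonged to miR-125b-5p, a miRNA abundant in mesenchymal and other somatic cells. It had 226.5 and 147.6 CPM in MEHP F1, against 175.5 and 2576 CPM in VZN F1. The difference of -2.85 ± 0.88 (log2, SE; edgeR adjusted p = 0.998) was 0.04 without VZN F1 library 2, and was called at -3.68 without VZN F1 library 1. VZN F1 library 2 had 23682 CPM of the mesenchymal list, which includes miR-125b-5p itself, against 10651 CPM in VZN F1 library 1. Of the erythroid list it had 6406 against 1240 CPM. The next 3 in F1 were miR-297c-5p of the Sfmbt2 locus at 0.87, miR-743b-3p of the X-linked cluster at 0.81 and miR-200a-3p, an epithelial miRNA that targets Zeb1 and Zeb2, at 0.76. None of the 4 was called.

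In F2, miR-106b-3p had 67.42 and 150.5 CPM in MEHP, against 37.81 and 52.43 CPM in VZN. Its difference was 1.26 ± 0.37 (log2, SE; edgeR adjusted p = 0.996), and the 2 lineages did not overlap. The others with the smallest p in F2 were miR-324-5p and a pair of 3p arms of the miR-290-295 cluster. miR-291a-3p had 4547 and 4380 CPM in MEHP F2 against 2169 and 2818 CPM in VZN F2, and miR-294-3p had 22008 and 27950 CPM in MEHP F2 against 12238 and 15666 CPM in VZN F2. The differences were 0.86 and 0.85 on the log2 scale and were not called. Both miRNAs had both MEHP F2 libraries above both VZN F2 libraries, as had 10 of 16 tested members of their cluster, beside 78 of all 310 (25.2%).

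In F3 the smallest p-values were those of miR-126a-3p, an endothelial miRNA, at -0.73, miR-204-5p at 1.24, miR-878-3p of the X-linked cluster at 0.88 and miR-429-3p of the miR-200 family at 0.58. Each had an edgeR adjusted p of 1.00 and an unadjusted p above 0.05. miR-126a-3p had 4428 and 3501 CPM in MEHP F3, against 7533 and 6234 CPM in VZN F3, without overlap. Both MEHP libraries were below both VZN libraries for 13.5% of all 310 miRNAs in F3.

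Among the pluripotency and germ cell groups, no member of a list other than the X-linked cluster was called in any class. The 16 tested members of the miR-290-295 cluster had a median of 0.04 in the mean, with 10 above 0, and of 0.01, 0.33, -0.25 and 0.23 in F1, F2, F2Sy and F3. The F2Sy median was -0.57 without VZN F2Sy library 1 and -0.36 without library 2, the F3 median was -0.05 without MEHP F3 library 2, and the median in the mean was -0.10 without VZN F2Sy library 1. Their sum ranged from 170848 to 287157 CPM in MEHP libraries, with a median of 229693, and from 191459 to 259231 CPM in VZN libraries, with a median of 226228. The lowest sums of the 16 libraries were the MEHP F2Sy pair, at 187871 and 170848 CPM, against 245455 and 191459 CPM in VZN F2Sy. CPM are shares of a listed total, of which the X-linked cluster held 202837 and 225682 CPM in the MEHP F2Sy pair. A larger share of that cluster lowers the CPM of all other miRNAs, and its part in these low sums was not tested.

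The 4 tested members of miR-302-367, a cluster shared with early embryonic cells, had a median of -0.11 in the mean and of -0.69 in F2Sy, the last of which was -1.17 without VZN F2Sy library 1 and -0.24 without library 2. Both MEHP F2Sy libraries were below the other 14 for 13 miRNAs (4.19%), among them miR-302a-3p, miR-302c-3p, miR-302d-3p, miR-290a-3p and miR-291a-5p, some of which were named after their values were seen. That pattern is read from CPM, so the limit given above for shares of a listed total holds here too. miR-290a-3p had 659.5 and 492.8 CPM in MEHP F2Sy, against 1235 and 1727 CPM in VZN F2Sy. Its difference of -1.18 was not called by edgeR (adjusted p = 0.0824). Without VZN F2Sy library 1 it was called at -1.35 (edgeR adjusted p = 0.0300). The 23 tested miRNAs of the Sfmbt2 locus had a median of 0.02 in the mean and of -0.21 in F2Sy, or -0.40 in F2Sy without VZN F2Sy library 1. The miR-183 cluster, with 4 members tested, had a median of -0.06, and the 18 of miR-17-92 and its paralogs one of 0.07.

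In the imprinted Dlk1-Dio3 cluster 3 of 28 tested members had a positive mean difference, beside 50.0% of all 310. The median was -0.18, beside 0.00 over all 310, and 1 member, miR-409-3p, had an unadjusted p under 0.05. miR-409-3p ranged from 171.4 to 316.4 CPM with a median of 211.4 in MEHP libraries, and from 223.1 to 370.4 CPM with a median of 269.9 in VZN libraries. The lineages overlapped. The medians of the list in F1, F2, F2Sy and F3 were -0.19, -0.24, -0.08 and -0.20, and leaving out 1 library moved that of the mean between -0.26 and -0.07. The median turned to 0.24 in F1 without VZN F1 library 2, to 0.04 in F3 without MEHP F3 library 2 and to 0.01 in F2Sy without VZN F2Sy library 1. 53 of the 81 members in the table were not listed in all 16 libraries, so the 28 are not the whole cluster. The let-7 family, which marks differentiated cells, had a median of -0.10 in the mean and of 0.39 in F2Sy over 11 members. Its F2Sy median was 1.05 without VZN F2Sy library 1 and -0.09 without library 2.

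The 4 tested members of the miR-200 family had a median of 0.35 in the mean and 0.71, 0.31, -0.03 and 0.53 in F1, F2, F2Sy and F3. Without MEHP F1 library 1 the F1 median was -0.11 and that of the mean 0.17, and leaving out 1 library moved the F2Sy median between -0.38 and 0.22. miR-200a-3p was the one with an unadjusted p under 0.05. It ranged from 963.0 to 2986 CPM with a median of 1629 in MEHP libraries, and from 1022 to 1841 CPM with a median of 1371 in VZN libraries, with overlap, and its difference was 0.41 ± 0.18 (log2, SE; edgeR adjusted p = 0.955). The miR-15/16 family had a median of -0.09 over 8 members, the miR-29 family one of 0.14 over 3, and the pair miR-148a-3p and miR-152-3p one of 0.02. 7 p53-responsive miRNAs had a median of 0.03. 11 miRNAs that respond to androgen in human prostate cells, listed because VZN blocks the androgen receptor, had a median of -0.10. Of these, 3 were above 0, beside 50.0% of all 310. Their medians were -0.19, 0.08, -0.25 and 0.14 in F1, F2, F2Sy and F3, and that of F2Sy was 0.16 without VZN F2Sy library 1. Some members, such as miR-99a-5p, are also in the mesenchymal list.

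**Figure D5:**
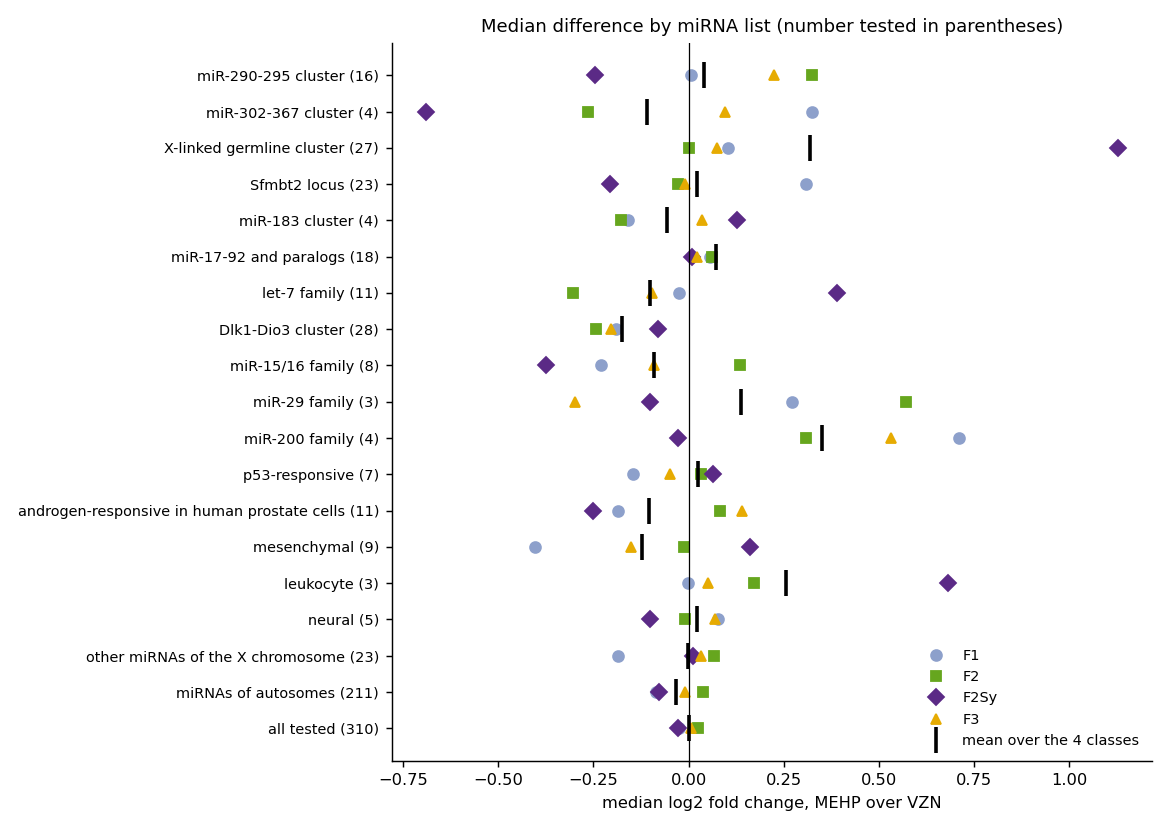
Median log2 fold change of MEHP over VZN for each list with at least 3 tested miRNAs (number in parentheses), in F1, F2, F2Sy and F3 (symbols) and averaged over the 4 classes (black ticks). The F2Sy median of the X-linked germline cluster, 1.13, is the farthest from 0, and the medians over all 310 miRNAs lie between -0.03 and 0.03.

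The germ cell label was checked against its markers. Every library held at least 170848 CPM of the miR-290-295 cluster and 77337 CPM of the X-linked cluster. miR-302-367 summed to 1178 to 3047 CPM in MEHP libraries and 1313 to 2971 CPM in VZN libraries. No somatic cell library was set beside them. Markers of other cells lay below the miR-290-295 and X-linked clusters in both lineages. The mesenchymal, endothelial and neural lists, however, lay above miR-302-367 in every library, and the gonadal somatic and erythroid lists did in some. The liver list was listed in MEHP F1 library 1 alone, at 44.1 CPM. In bulk libraries a change in the share of such cells and a change of RNA per cell cannot be told apart. The 9 tested mesenchymal miRNAs had a median difference of -0.12, and their list summed to 9595 to 29359 CPM in MEHP libraries and 10651 to 29133 CPM in VZN libraries. miR-202-5p, a miRNA of gonadal supporting cells, was 2013 and 1973 CPM in MEHP F1, 1158 and 2029 in MEHP F2, 2074 and 3520 in MEHP F2Sy, and 7809 and 1786 in MEHP F3. In the VZN lineage it was 1247 and 4505 CPM in F1, 4160 and 2665 in F2, 3765 and 3536 in F2Sy, and 11791 and 5224 in F3. The mean difference of -0.65 ± 0.33 (log2, SE) was not called (edgeR adjusted p = 0.955). The F2 and F2Sy libraries did not overlap between the lineages, though in F2Sy the nearest values were 3520 and 3536 CPM. Both MEHP libraries were below both VZN libraries for 16.1% of all 310 miRNAs in F2 and 22.9% in F2Sy.

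Beside the F2Sy results, the mesenchymal list summed to 17859 and 28867 CPM in MEHP F2Sy against 29133 and 20492 CPM in VZN F2Sy. The leukocyte list stood at 942.7 and 1101 CPM in MEHP F2Sy, against 898.5 and 380.3 CPM in VZN F2Sy. The endothelial list stood at 2271 and 4576 CPM in MEHP F2Sy, against 5557 and 6597 CPM in VZN F2Sy. miR-206-3p, the tested muscle marker, had 461.0 and 537.1 CPM in MEHP F2Sy, against 187.2 and 69.23 CPM in VZN F2Sy, a difference of 2.07 that was not called (edgeR adjusted p = 0.104). It was called at 3.08 without VZN F2Sy library 1 (edgeR adjusted p = 0.0200), and stood at 1.46 without library 2. The 5 neural miRNAs had a median difference of -0.10 in F2Sy and of 0.02 in the mean. The part of these cells in the F2Sy results was not tested.

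Of the 143 miRNAs listed in some libraries, none was listed in all 8 libraries of 1 lineage and in 4 or fewer of the other. The widest gap, named after the values were seen, was that of miR-139-3p, listed in 0 of 8 MEHP and 4 of 8 VZN libraries at up to 37.9 CPM. miR-141-3p, of the miR-200 family, was listed in 8 MEHP and 5 VZN libraries. A blank cell is no measured 0, so these counts give no fold change.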

How the data were processed

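The deposited values are whole-number counts per mature miRNA, which the authors added up over canonical form and isomiRs, per the file headers; Bowtie 1.3.1 and the build mm39 are named per the submitters' processing notes. The 16 libraries have 2837 of 9008 cells blank (31.5%) and no listed 0; what left a cell blank, like the annotation and the counting settings, is not stated in the labels or headers, so totals are of listed counts and not of depth. The design assumed a complete table; because of the blanks, the 310 miRNAs listed in all 16 libraries were tested, which hold 99.1 to 99.6% of listed counts.

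The test was edgeR 4.0.16, run in R 4.3.3 (TMM, robust quasi-likelihood fit of 8 group means, two-sided, Benjamini-Hochberg adjustment over 310, threshold 0.05). Residual degrees of freedom were 8 and the biological coefficient of variation 0.345. The code was tested on simulated data. Alternatives used DESeq2 1.42.0, limma 3.58.1 (voom), other scalings and filters, all 24 PGC libraries, the replicate block and each library left out. With a library left out, the miRNAs listed in all remaining libraries were tested, so the number tested can differ from 310. Library totals were compared by exact permutation within classes (1296 arrangements) in Python 3.11.15. log2 CPM add a prior count of 2. Without molecular identifiers, PCR copies cannot be told from separate molecules.

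The comparison and the 23 miRNA lists were chosen with earlier results of these data known; which libraries enter it follows from their labels. Named are up to 10 calls per direction with the largest fold change, the 10 smallest p in the mean, the 4 smallest in each class and each difference between classes, the 10 most abundant miRNAs and up to 3 members of each list; others are said to be named after their values were seen. Sequences and positions come from RefSeq GRCm38.p6, gene context from GENCODE on GRCm38; no coordinates of mm39 are given.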

Additional observations from a re-analysis of the deposited data

Results flagged for a closer look

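Over the 8 libraries of a lineage, 48 sets of values were examined for a single library far from the rest, and 2 had one. Chance alone gives about 1 in 20 for values of 1 group. Here each set spans 4 generation classes, and the miRNAs examined were chosen by their small p in these data. That rate therefore cannot be set against the 2. miR-742-3p of the X-linked cluster stood at 436.0 CPM in MEHP F2Sy library 1, while the other 7 MEHP libraries lay between 162.6 and 263.3 CPM. miR-106b-3p stood at 150.5 CPM in MEHP F2 library 2, while the other 7 MEHP libraries lay between 56.15 and 83.38 CPM. The cause was not tested in either case.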

How the results depend on the processing

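The mean over the 4 classes kept 0 calls under every planned setting but the leaving out of single libraries (0 to 4 calls; 4 without VZN F2Sy library 1 and 4 without library 2), and gave 0 without the F2Sy class. The 3 F2Sy calls became 1 with library size alone, 5 with blanks as 0 and no filter on blanks, 0 with blanks at the smallest listed count, 6 with a mean of at least 100 CPM, 29 with DESeq2, 0 with limma voom, 1 with all 24 PGC libraries, 0 with the 4 F2Sy libraries alone and 0 when adjusted over the 4 classes together; leaving out 1 library gave 0 to 49. Leaving out 1 library gave 0 to 1 calls in F1 (miR-125b-5p at -3.68 without VZN F1 library 1), 0 to 21 for F2Sy minus F2 and 0 to 7 for the joint test, which had 13 and 6 calls with DESeq2 and 0 without the F2Sy class. miR-125b-5p in F1 turned to 0.036 without VZN F1 library 2. The lineage difference in the number of listed miRNAs, -0.625, ran from -2.86 to 1.23 when 1 library was left out. Library size alone moved the F2Sy median of all miRNAs by -0.17, and the X-linked median to 0.95. Libraries with the same replicate number in both lineages correlated, as deviations from their group means, at -0.39, -0.01, -0.03 and 0.38 in F1, F2, F2Sy and F3. Whether equal numbers share a batch is not in the labels. The replicate block gave 1 F2Sy call (miR-871-3p) and 0 in the other comparisons. The cause was not tested for any of these. Of 2264 alternative values of single miRNAs, 2202 kept their side of the threshold, 45 lost a call and 17 gained one. Only the 3 called values could lose a call. The F2Sy call was lost in 9 of 27 alternatives for miR-871-3p, 19 of 27 for miR-741-3p and 17 of 27 for miR-652-3p. Of 670 alternative values of list medians, 17 moved by the spread between libraries or more. In 180 of both kinds the sign changed, 132 of single miRNAs and 48 of list medians, none of them a called value; the median size of the reported values that did so was 0.021.

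With 2 libraries a group, the class comparisons left 95% intervals that reach a median of 0.83 to either side on the log2 scale.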
